A study of Homo sapiens with 22 samples.

Results

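HOX and other homeobox genes were followed through 11 established human glioblastoma cell lines. Members were all genes whose symbols mark them as HOX A to D genes or as members of the ALX, BARX, CUX, DLX, EN, IRX, LHX, MEIS, MEOX, NKX, PAX, PBX, PITX, POU, PRRX, TLX, TSHZ, ZFHX and sine oculis families. The EMX, MSX, OTX and VAX families were searched for as well and gave no member here. They came to 63 of the 6825 genes in the deposited tables. The lines were sequenced without treatment as poly(A) RNA, with 2 libraries per line and 22 in all. The table of 8 lines (LN-18, T98G, KALS-1, KNS-42, U-87MG, SNU-1105, U-138MG and LN-229) lists 2221 genes, of which 24 are members (4 HOX genes and 20 others). The table of 3 lines (A-172, AM-38, SNU-466) lists 5383 genes, of which 51 are members (15 HOX genes and 36 others). DMEM was used for A-172, KNS-42, LN-18 and LN-229, EMEM for AM-38, T98G, U-138MG and U-87MG, and RPMI 1640 for KALS-1, SNU-466 and SNU-1105. All media held serum, 20% in the case of AM-38 and 10% otherwise. Each line is a single established line, without its tumour's other cells. Medium and line cannot be told apart.

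Homeobox genes encode transcription factors that bind DNA through the homeodomain and set regional identity in the embryo. HOX genes lie in 4 clusters, HOXA to HOXD, and their order along the chromosome matches the order of their expression domains from head to tail. Low paralog numbers act toward the hindbrain and high numbers toward the trunk and limbs. The forebrain is largely without HOX expression, whereas DLX, LHX, PAX, NKX and EN genes pattern the brain there and in the midbrain. HOX genes active in gliomas have been studied for their ties to stem-like cells and to resistance to treatment. MEIS and PBX proteins are the classical DNA-binding partners of HOX proteins.

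The library totals, worked back from reads, length and FPKM, were 17117491 to 21011463 reads in the 8 lines and 16958669 to 21213215 reads in the 3 lines. Where both libraries of a line had 0 reads of a gene, the limit taken is 3 reads in the 2 libraries together, for counting error alone, and folds against such a line are lower bounds set on that limit. Nothing says why a gene is in a table. In the table of 8 lines, T98G, LN-18 and KALS-1 were set against the remaining 5. The means were 2-fold or more apart for 99.3% of genes and for all 24 members. Of the members, 9 were higher and 15 lower in those 3 lines, and 40.4% of all listed genes were higher there. In the table of 3 lines, 93.9% of genes were 2-fold or more apart between SNU-466 and the other 2 lines, as were 50 of 51 members. Of the 51, 23 were higher and 28 lower in SNU-466, and 45.8% of all listed genes were higher there. A member absent from a table was not analysed there. Levels are FPKM as deposited, which are per length, so genes can be compared within a line. Tests ran only within a table, and levels set across the tables carry no test. The 2 libraries of T98G and of SNU-1105 lay further apart than those of the other lines: 70.5% and 78.2% of their genes were within 1.5-fold, against at least 91.3% elsewhere. Whether the 2 libraries of a line were separate cultures is not stated, so the p-values speak only of library-to-library spread, which could be technical alone.

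The lines were checked against 22 marker genes. In the 8 lines, 3 of 8 glial markers were listed. VIM was high in every library (239 to 1045 FPKM), whereas SOX2, a neural stem cell factor, was at 312 and 326 FPKM in KNS-42, at 32.6 to 51.8 FPKM in LN-229 and SNU-1105 and at 1.23 FPKM or less in the other 5 lines. In the 3 lines, 4 of 8 glial markers were listed and their sum was 1046 and 1045 FPKM in SNU-466 against 91.2 to 108 FPKM in A-172 and AM-38. The SNU-466 sum was mostly S100B, at 958 FPKM in each library against at most 0.97 FPKM in A-172 and AM-38. SOX9, a glial lineage factor, went the other way, at 0.05 and 0.04 FPKM in SNU-466, 48.0 and 47.0 FPKM in A-172 and 66.6 and 67.7 FPKM in AM-38. GFAP, the astrocyte filament protein, reached 3.31 and 3.51 FPKM in SNU-466 and at most 0.12 FPKM in A-172 and AM-38. The fibroblast markers COL1A2 and DCN summed to 959 and 957 FPKM in SNU-466, to 11.7 and 11.1 FPKM in A-172 and to 0.08 FPKM in each AM-38 library. The epithelial marker KRT18 stood at 328 and 313 FPKM in A-172, 74.9 and 69.1 FPKM in AM-38 and 0.06 and 0.08 FPKM in SNU-466. The leukocyte gene PTPRC was at 0.39 FPKM or less in all 22 libraries.

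Promoter sequences were taken from RefSeq (GRCh38.p14), as the 250 bases before the start of the RefSeq entry, 5′ to 3′ on the strand of the gene. HOXA13 and HOXC5 are shown because they are HOX genes that single out a line among the 8, and DLX1 and DLX6 because a DLX gene is shared by all 8 lines in the first case and by only 3 in the second. Capitals mark each CCAAT or, on the other strand, ATTGG, the short element bound by the factor NF-Y. The HOXA13 window is chr7:27200092-27200341 on the minus strand, the DLX1 window chr2:172085257-172085506, the DLX6 window chr7:97005303-97005552 and the HOXC5 window chr12:54016638-54016887, these last on the plus strand. The starts of RefSeq and GENCODE 29 are not the same for these genes. The HOXC5 window ends 15965 bases before the GENCODE start of HOXC5, and the DLX1 window begins 517 bases past the GENCODE start of DLX1 and lies wholly within that gene. The HOXA13 and DLX6 windows reach 15 and 5 bases into the GENCODE genes.
HOXA13: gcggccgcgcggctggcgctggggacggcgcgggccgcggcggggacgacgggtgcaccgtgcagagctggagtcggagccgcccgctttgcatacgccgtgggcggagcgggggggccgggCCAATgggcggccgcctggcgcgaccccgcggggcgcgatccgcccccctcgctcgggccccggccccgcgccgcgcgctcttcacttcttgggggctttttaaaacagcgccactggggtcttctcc
DLX1: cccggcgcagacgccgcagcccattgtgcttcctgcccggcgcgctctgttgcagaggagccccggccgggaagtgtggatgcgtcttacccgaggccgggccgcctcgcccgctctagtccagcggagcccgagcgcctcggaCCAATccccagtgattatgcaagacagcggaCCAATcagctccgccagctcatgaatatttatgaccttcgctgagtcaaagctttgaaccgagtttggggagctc
DLX6: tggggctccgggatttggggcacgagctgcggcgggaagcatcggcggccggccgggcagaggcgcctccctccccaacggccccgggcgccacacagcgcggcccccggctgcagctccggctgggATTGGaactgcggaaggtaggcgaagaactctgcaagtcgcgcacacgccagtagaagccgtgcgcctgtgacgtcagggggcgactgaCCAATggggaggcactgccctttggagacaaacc
HOXC5: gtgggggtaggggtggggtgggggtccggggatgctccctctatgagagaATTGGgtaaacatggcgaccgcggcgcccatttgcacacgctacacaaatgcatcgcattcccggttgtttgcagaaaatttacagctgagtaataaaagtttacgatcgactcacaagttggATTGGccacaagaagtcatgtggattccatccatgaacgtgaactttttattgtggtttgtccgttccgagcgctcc

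HOXA13 holds 1 match, 128 bases before the RefSeq start, and the other 3 sequences hold 2 each. HOXC4 and HOXC5 share 1 RefSeq entry, starting at the same base, so the last sequence stands for both. The promoter table had an entry for 33 members. A match was present in 17 of them (51.5%), in 5 of 5 HOX entries and in 9021 of 27305 promoters of all genes (33%). The shared window of HOXC4 and HOXC5 is counted for each of the 2 genes, here and in the CpG medians. No HOXB gene had an entry. The median number of CpG dinucleotides in the window was 22 for members, 16 for the HOX entries and 11 for all promoters. The HOXA13 window holds 40 CpG, the DLX6 window 25, the DLX1 window 23 and the HOXC5 window 14. These counts describe the letters of the windows only.

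In the 3 lines, A-172 and AM-38 had all 7 listed HOXB genes at a mean of 1 FPKM or more, whereas SNU-466 had only HOXB6, HOXB7 and HOXB8 there and had instead its highest HOX levels in HOXC4 and HOXC6. The 7 HOXB genes summed to 178 and 180 FPKM in the libraries of A-172, 88.1 and 89.4 FPKM in AM-38 and 5.58 and 6.48 FPKM in SNU-466. The 6 HOXC genes summed to 12.7 and 12.1 FPKM in A-172, 7.21 and 7.17 FPKM in AM-38 and 14.4 and 15.1 FPKM in SNU-466. The number of HOX genes at 1 FPKM or more was 10 of 15 in A-172, 10 of 15 in AM-38 and 8 of 15 in SNU-466, against 49.7%, 51.8% and 45.9% of all listed genes.

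**Figure D1:**
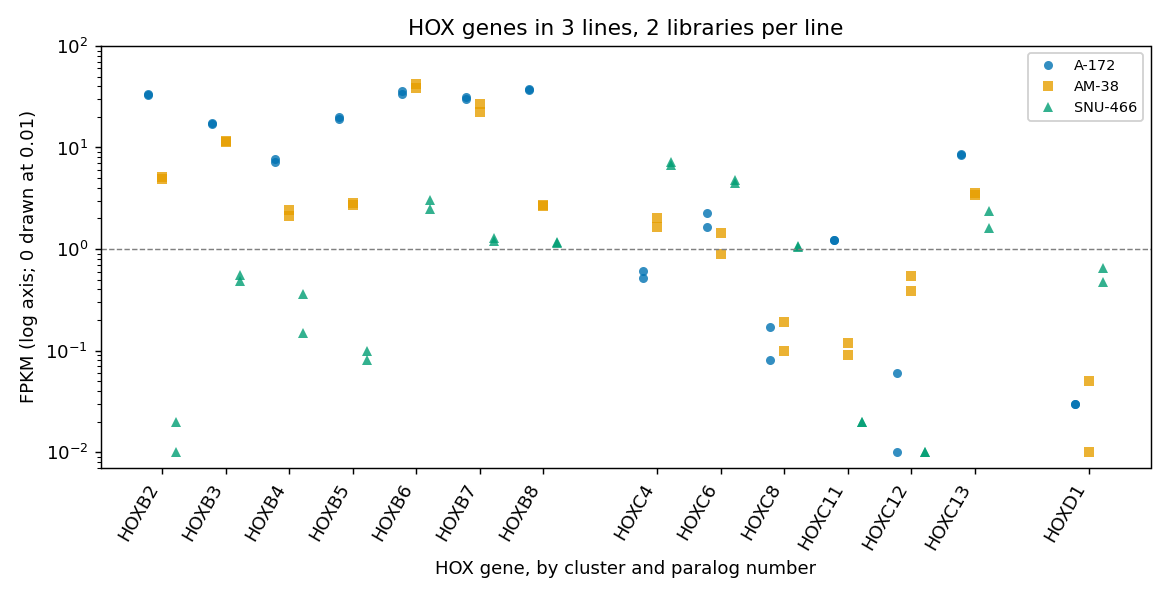
FPKM of 14 listed HOX genes in the 2 libraries of A-172, AM-38 and SNU-466, on a log axis with 0 drawn at 0.01 and a dashed line at 1 FPKM. The HOXB genes of SNU-466 lie under those of A-172 and AM-38 throughout, while HOXC4, HOXC6, HOXC8 and HOXD1 are highest in SNU-466.

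The HOXB genes lie on the minus strand of chromosome 17 (GENCODE 29, GRCh38), from HOXB2 at 48540894 to 48544989 to HOXB8 at 48611377 to 48614939. HOXB2, a hindbrain patterning gene, was at 32.7 and 33.5 FPKM in A-172, 4.88 and 5.09 FPKM in AM-38, and 0 and 0.02 FPKM in SNU-466, where 1 read was seen in all. HOXB3 was at 17.4 and 16.9 FPKM in A-172, 11.3 and 11.5 FPKM in AM-38 and 0.48 and 0.56 FPKM in SNU-466. HOXB4, known for expanding blood stem cells, was at 7.14 and 7.63 FPKM in A-172, 2.10 and 2.43 FPKM in AM-38 and 0.15 and 0.36 FPKM in SNU-466. For these 3 genes the order A-172, AM-38, SNU-466 was the same and no libraries of different lines overlapped.

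HOXB5 was at 19.8 and 18.9 FPKM in A-172, 2.84 and 2.73 FPKM in AM-38 and 0.10 and 0.08 FPKM in SNU-466. HOXB8 was at 36.6 and 37.5 FPKM in A-172, 2.71 and 2.67 FPKM in AM-38 and 1.18 and 1.14 FPKM in SNU-466. Both were thus several-fold higher in A-172 than in AM-38. HOXB6 was at 33.4 and 35.8 FPKM in A-172, 41.8 and 38.3 FPKM in AM-38 and 2.47 and 3.05 FPKM in SNU-466. HOXB7 was at 31.4 and 30.1 FPKM in A-172, 22.5 and 26.7 FPKM in AM-38 and 1.20 and 1.27 FPKM in SNU-466. HOXB6 and HOXB7 were therefore near each other in A-172 and AM-38, unlike their neighbours HOXB5 and HOXB8.

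The log2 fold change of A-172 over AM-38 was 3.78 (SE 0.10, adjusted p = 4.27e-52) for HOXB8, 2.79 (SE 0.12, adjusted p = 1.67e-36) for HOXB5 and 2.73 (SE 0.09, adjusted p = 1.61e-44) for HOXB2. It was 1.71 (SE 0.15) for HOXB4 and 0.59 (SE 0.06) for HOXB3, the latter under the 2-fold threshold. HOXB7 was higher in A-172 by 0.32 (SE 0.08, adjusted p = 0.000323) and HOXB6 higher in AM-38 by 0.21 (SE 0.06, adjusted p = 0.00239). These 2 small differences did not hold under every alternative. The HOXB7 difference had an adjusted p of 0.0611 without the first AM-38 library and 0.187 with RLE scaling, within a range of 2.08e-05 to 0.187 over 12 alternatives. The HOXB6 difference had an adjusted p of 0.0818 without the first AM-38 library and 0.133 with limma, within a range of 9.58e-11 to 0.133.

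Against SNU-466, all 7 HOXB genes were called higher in A-172 (49.9% of all tested genes), with log2 fold changes from 3.64 (HOXB6) to 7.72 (HOXB5) among the 6 genes with more than 1 read in SNU-466. All 7 were also called higher in AM-38 (51.6% of all tested genes), from 1.21 (HOXB8) to 4.93 (HOXB5) among the same 6. HOXB6 shares 16.6% of its exon bases with HOXB3 on the same strand and 16.3% with HOXB-AS3 on the opposite strand, so its level is uncertain, since how the counting treated strand is not stated.

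The 6 HOXC genes, on the plus strand of chromosome 12, did not share an order. HOXC4 was at 7.22 and 6.77 FPKM in SNU-466, 1.64 and 2.01 FPKM in AM-38 and 0.61 and 0.52 FPKM in A-172. HOXC6 was at 4.48 and 4.82 FPKM in SNU-466, 2.27 and 1.65 FPKM in A-172 and 1.45 and 0.90 FPKM in AM-38. HOXC8 was at 1.05 and 1.07 FPKM in SNU-466 and at 0.08 to 0.19 FPKM in the libraries of A-172 and AM-38. These 3 genes were highest in SNU-466, above the next line by log2 fold changes of 1.94 (SE 0.14) for HOXC4, 1.25 (SE 0.14) for HOXC6 and 2.89 (SE 0.40) for HOXC8. HOXC4 shares 17.8% of its exon bases with HOXC6, so reads may be split between them.

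The HOXC genes of high paralog number were highest in A-172 or AM-38. HOXC13, a regulator of hair and nail keratins, was at 8.35 and 8.65 FPKM in A-172, 3.54 and 3.41 FPKM in AM-38 and 1.60 and 2.38 FPKM in SNU-466, the 3 lines not overlapping. HOXC11 was at 1.22 and 1.23 FPKM in A-172, 0.09 and 0.12 FPKM in AM-38 and 0.02 FPKM in each SNU-466 library. HOXC12 was highest in AM-38, at 0.39 and 0.54 FPKM, with 0.06 and 0 FPKM in A-172 and 0 reads in SNU-466. The log2 fold change of A-172 over AM-38 was 1.29 (SE 0.13, adjusted p = 7.39e-16) for HOXC13 and 3.53 (SE 0.36, adjusted p = 4.63e-15) for HOXC11. HOXC12 was at least 18.5-fold higher in AM-38 than in SNU-466.

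HOXD1 stayed under 1 FPKM in all 3 lines, at 0.47 and 0.65 FPKM in SNU-466 and 0 to 0.05 FPKM elsewhere. Its level is uncertain, because an opposite-strand gene covers 50.1% of its exon bases. HOXC4, HOXC6, HOXC8 and HOXD1 were thus all highest in SNU-466. SNU-466 is also the line with the high fibroblast markers, the high S100B and the low SOX9 and KRT18 given above, whose part in these differences was not tested.

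Among the 50 tested members, 21 were called higher and 7 lower in A-172 than in AM-38 at an adjusted p under 0.05 and a 2-fold difference, with 24.1% and 24.5% of all 5035 tested genes. The median log2 fold change was 0.44 for the members and 0.05 for all genes. Of the 15 HOX genes, 6 were higher in A-172 (HOXB2, HOXB4, HOXB5, HOXB8, HOXC11, HOXC13) and 2 lower (HOXC4, HOXC12). Against SNU-466, 26 members were higher and 20 lower in A-172 (49.9% and 34.8% of all genes), and 25 were higher and 22 lower in AM-38 (51.6% and 40.1%). The HOX genes gave 10 higher and 5 lower in A-172, and 9 higher and 5 lower in AM-38. The member medians were 1.54 and 1.00 and the medians of all genes 1.28 and 1.23, and neither difference in medians was tested. Scaling by factors of the listed genes moved the median of all genes by up to 0.52 (RLE, AM-38 against SNU-466) and by up to 0.86 in the 8 lines (KNS-42 against T98G).

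RNAs without coding potential that lie within the clusters were listed for 8 of 19 in the 3 lines. HOXB-AS3 was at 18.1 and 17.3 FPKM in A-172, 0.67 and 0.76 FPKM in AM-38 and 0.06 and 0.08 FPKM in SNU-466. HOTAIR, which is transcribed from the HOXC cluster, was at 5.98 and 6 FPKM in A-172, 0.29 and 0.31 FPKM in AM-38 and 0.08 and 0.10 FPKM in SNU-466. HOTAIRM1, from the HOXA cluster, was at 16.1 and 19.3 FPKM in SNU-466, 4.55 and 6.33 FPKM in A-172 and 3.31 and 3.05 FPKM in AM-38. HAGLR, next to HOXD1, was at 5.22 and 5.59 FPKM in SNU-466 and at 1.23 to 1.49 FPKM in A-172 and AM-38. HOXB-AS3 was thus highest in the line with the highest HOXB3 and HOXB5, and HAGLR in that with the highest HOXD1. Of the genes on either side of HOTAIR, HOXC11 was highest in A-172, as HOTAIR was, and HOXC12 was highest in AM-38. HOXB6 shares 16.3% of its exon bases with HOXB-AS3, against 3.58% for HOXB5 and 1.03% for HOXB3. HOXB6 averaged 40.06 FPKM in AM-38 and 34.59 FPKM in A-172. HOXB-AS3 averaged 0.715 FPKM in AM-38 and 17.685 FPKM in A-172. The part of HOXB-AS3 reads in the HOXB6 level was not tested. Of the 8 RNAs, 6 were higher and 0 lower in A-172 than in AM-38. The 6 included HOXA-AS3, with only 3 reads in each A-172 library and 0 in AM-38. Against SNU-466, 4 RNAs were higher and 3 lower in A-172, and 4 higher and 4 lower in AM-38. The shares of all tested genes, in the same order, were 24.1% and 24.5%, 49.9% and 34.8%, and 51.6% and 40.1%. They overlap HOX exons on the opposite strand in part, so the 2 sets of values are not independent.

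In the 8 lines, 4 HOX genes were listed, 1 from each cluster. HOXA13 reached 1 FPKM in KALS-1, LN-18 and T98G, HOXB2 in KNS-42, SNU-1105 and U-87MG, and neither in LN-229 and U-138MG. HOXC5 and HOXD12 stayed under 1 FPKM in all 8 lines. No line had both HOXA13 and HOXB2 at 1 FPKM, although HOXA13 came close in SNU-1105 at 0.85 and 0.94 FPKM. The lines with HOXA13 at 1 FPKM are 1 side of the split on which nearly all genes of the table differ. On the other side HOXB2 followed only in part, at means of 0.115 FPKM in LN-229 and 0.09 FPKM in U-138MG. Both were under the 0.43 FPKM of KALS-1. Nothing is read from this pattern about the HOX genes. Of the 2 listed epithelial markers, KRT18 was higher in KALS-1, LN-18 and T98G than in the other 5 lines. Its second T98G library, at 17.4 FPKM, was close to LN-229 at 17.1 FPKM. CDH1 was higher in KALS-1 and LN-18 only. The sum of the 2 was 62.7 and 57.9 FPKM in KALS-1 and 65.3 and 70.9 FPKM in LN-18. It was 35.9 and 17.4 FPKM in T98G, against 0.09 to 17.1 FPKM in the other 5 lines. CDH1, which defines epithelial cells, was at 1.6 FPKM or less in every library and at 0 in T98G, LN-229, SNU-1105 and U-87MG. The 3 listed glial markers summed to 242 to 465 FPKM in KALS-1, LN-18 and T98G. In the other 5 lines the sum was 662 to 1337 FPKM, and in every line it was mostly VIM. SOX2 and PDGFRA did not divide the lines this way, though they were highest in KNS-42 and U-138MG. PDGFRA averaged 7.98 FPKM in LN-18 against 1.87 FPKM in LN-229 and 1.47 FPKM in SNU-1105. SOX2 averaged 1.04 FPKM in KALS-1 against 0.13 FPKM in U-138MG and 0.05 FPKM in U-87MG. The part of these markers in the HOX levels was not tested.

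**Figure D2:**
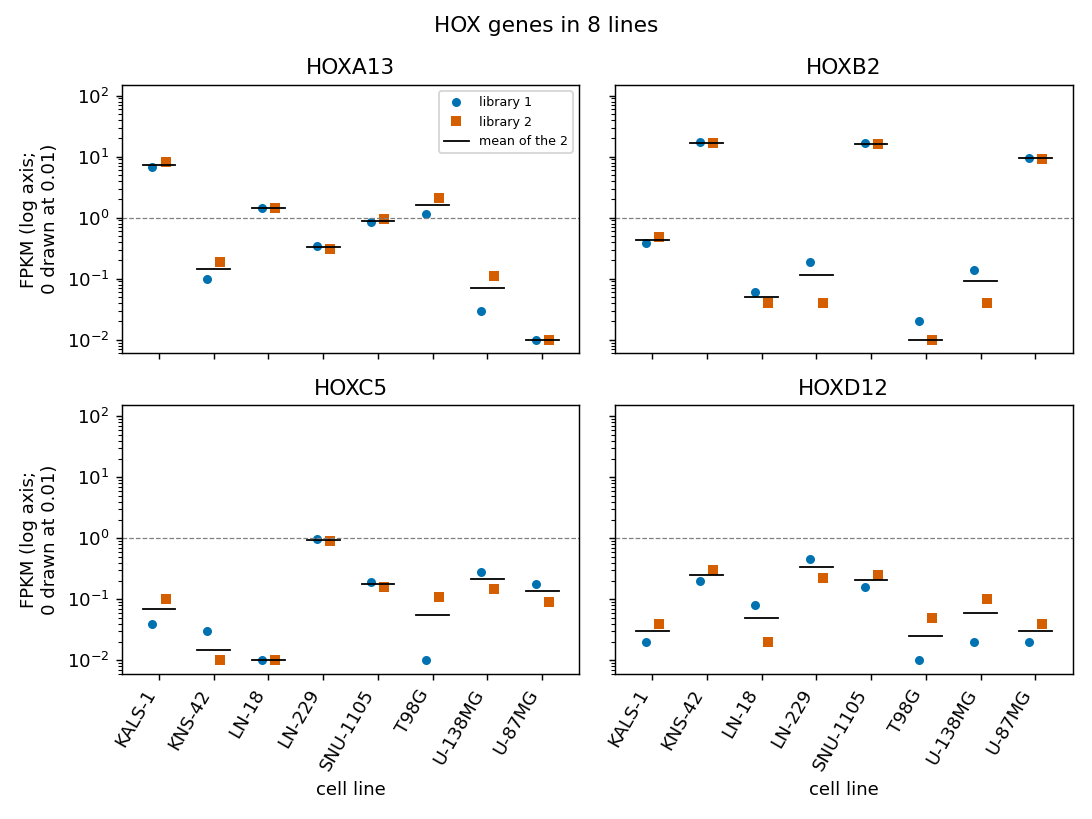
FPKM of the 4 listed HOX genes in the 2 libraries of each of 8 lines, with the mean as a bar, on a log axis with 0 drawn at 0.01 and a dashed line at 1 FPKM. HOXA13 peaks in KALS-1, HOXB2 forms a high set of 3 lines, and HOXC5 and HOXD12 lie under the dashed line.

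HOXA13, the last HOXA gene and a factor of limb and hindgut development, lies at 27193503 to 27200106 on the minus strand of chromosome 7. It was at 6.76 and 8.03 FPKM in KALS-1, 1.13 and 2.11 FPKM in T98G, 1.46 in each LN-18 library and 0.85 and 0.94 FPKM in SNU-1105. It was at 0.31 and 0.35 FPKM in LN-229, 0.10 and 0.19 FPKM in KNS-42, 0.03 and 0.11 FPKM in U-138MG and at 0 reads in U-87MG. KALS-1 stood above every other library, by a log2 fold change of 2.19 over T98G (SE 0.34, adjusted p = 2.74e-05). T98G and LN-18 did not differ beyond their spread (adjusted p = 0.77), nor did LN-18 and SNU-1105 (adjusted p = 0.0743). HOXA13 was at least 507-fold higher in KALS-1 than in U-87MG. The neighbouring RNA HOTTIP, which is known to act on the 5′ HOXA genes, was called higher in KALS-1 than in each other line, but its level there was only 0.24 and 0.28 FPKM. KALS-1 also had the highest sum of the 3 listed leukocyte markers, at 6.48 and 6.97 FPKM against 0.08 to 0.56 FPKM elsewhere, almost all of it CD14. Its part in the HOXA13 level was not tested.

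HOXB2 was at 17.3 and 16.6 FPKM in KNS-42, 16.9 and 15.9 FPKM in SNU-1105 and 9.46 and 9.22 FPKM in U-87MG. The other 5 lines had at most 0.48 FPKM, and T98G had 1 read. KNS-42 and SNU-1105 overlapped, and their order turned with TMM (log2 fold change -0.18) and RLE scaling (-0.15), without a call in any of 23 alternatives. SNU-1105 was above U-87MG by 0.81 (SE 0.28, adjusted p = 0.0207) and U-87MG above KALS-1 by 4.43 (SE 0.36, adjusted p = 2.97e-09). The antisense RNA HOXB-AS1 was also at 1 FPKM or more in these 3 lines only, at 1.95 and 2.13 FPKM in KNS-42, 1.01 and 1.57 FPKM in SNU-1105 and 1.28 and 1.5 FPKM in U-87MG, against at most 0.31 FPKM in the other libraries. It shares 3.72% of the exon bases of HOXB2.

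HOXC5 was at 0.97 and 0.91 FPKM in LN-229 and at most 0.28 FPKM in the other 7 lines, with 0 reads in LN-18. LN-229 was above U-138MG by 2.10 (SE 0.57, adjusted p = 0.00451), but not without the second U-138MG library (adjusted p = 0.0623) nor with DESeq2 (adjusted p = 0.0747), within a range of 0.00119 to 0.0747. Another annotated entry covers 59.9% of its exon bases, so its reads are uncertain. HOXD12, a limb patterning gene, was at 0.46 and 0.22 FPKM in LN-229, 0.20 and 0.30 FPKM in KNS-42 and 0.16 and 0.25 FPKM in SNU-1105, and at 0.10 FPKM or less in the other lines. These 3 lines overlapped, and LN-229 and KNS-42 did not differ beyond their spread (adjusted p = 0.545).

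Over the 8 lines, all 24 members passed the low-count filter and all 24 differed among the lines, as did 99.7% of the 2095 tested genes. In 9 of 24, 1 line was called higher than each of the other 7, against 46.8% of all tested genes. These were HOXA13 (KALS-1), HOXC5 (LN-229), DLX6 and TSHZ1 (KNS-42), BARX1 and DLX4 (LN-18), MEOX2 (U-138MG), PAX2 (T98G) and POU2F2 (U-87MG). By line, this made 2 of 24 for LN-18 (9.5% of all genes), 2 for KNS-42 (8.35%), 1 for KALS-1 (8.78%), 1 for U-87MG (5.78%), 1 for T98G (4.73%), 1 for LN-229 (4.53%), 1 for U-138MG (4.2%) and 0 for SNU-1105 (0.955%). With no fold threshold the count was 15, and with DESeq2 it was 6. The median of the highest line mean was 4.17 FPKM for the HOX genes, 6.71 FPKM for the other members and 3.01 FPKM for all listed genes.

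DLX genes, which pattern the forebrain and the branchial arches and drive interneuron development, had 4 members in the 8 lines. DLX1 was found in all 8 lines, from 3.27 FPKM in T98G to 25.0 FPKM in KNS-42. It was at 25.0 and 21.8 FPKM in KNS-42, 15.8 and 12.5 FPKM in SNU-1105, 12.3 and 15.3 FPKM in LN-229 and 11.3 and 12.6 FPKM in U-138MG. It was at 7.59 and 7.81 FPKM in KALS-1, 7.05 and 6.29 FPKM in LN-18, 4.43 and 4.39 FPKM in U-87MG and 3.79 and 3.27 FPKM in T98G. KNS-42 was above SNU-1105 by 0.73 (SE 0.20, adjusted p = 0.00467), which without the first KNS-42 library had an adjusted p of 0.0507, the highest of its 23 alternatives (lowest 8.19e-05). SNU-1105 and LN-229 did not differ beyond their spread (adjusted p = 0.946), nor did LN-229 and U-138MG (adjusted p = 0.409), whereas U-138MG was above KALS-1 by 0.63 (SE 0.20, adjusted p = 0.00924).

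DLX5 and DLX6 are neighbours on chromosome 7, 9352 bases apart and on opposite strands, and they share enhancers. DLX5 was at 37.6 and 33.2 FPKM in KNS-42, 19.0 and 23.4 FPKM in SNU-1105, 5.59 and 5.76 FPKM in LN-229 and 0.49 and 0.51 FPKM in U-138MG. It was at 0.07 FPKM or less in KALS-1, LN-18, T98G and U-87MG. DLX6 was at 10.3 and 10.1 FPKM in KNS-42, 1.9 and 2.16 FPKM in SNU-1105 and 1.74 and 1.65 FPKM in LN-229, and at 0.06 FPKM or less in the other 5 lines. So the same 3 lines had both genes at 1 FPKM or more. They are also the 3 lines with high SOX2 given above, and the part of SOX2 in this was not tested.

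DLX6 was higher in KNS-42 than in SNU-1105 by 2.32 on the log2 scale (SE 0.35, adjusted p = 3.5e-05), and SNU-1105 and LN-229 did not differ beyond their spread (adjusted p = 0.562). It was at least 466-fold higher in KNS-42 than in the lowest line. DLX5 was higher in KNS-42 than in SNU-1105 by 0.74 (SE 0.27, adjusted p = 0.0255), but 6 of 23 alternatives ended this call, among them leaving out either KNS-42 library or the first SNU-1105 library (adjusted p of 0.142, 0.0602 and 0.122, range 0.00238 to 0.147). SNU-1105 was above LN-229 by 1.9 (SE 0.28) and LN-229 above U-138MG by 3.49 (SE 0.35). DLX4 was at 2.65 and 2.54 FPKM in LN-18, 0.77 and 1.55 FPKM in T98G and 0.52 FPKM or less elsewhere, LN-18 being above T98G by 1.17 (SE 0.39, adjusted p = 0.0184).

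**Figure D3:**
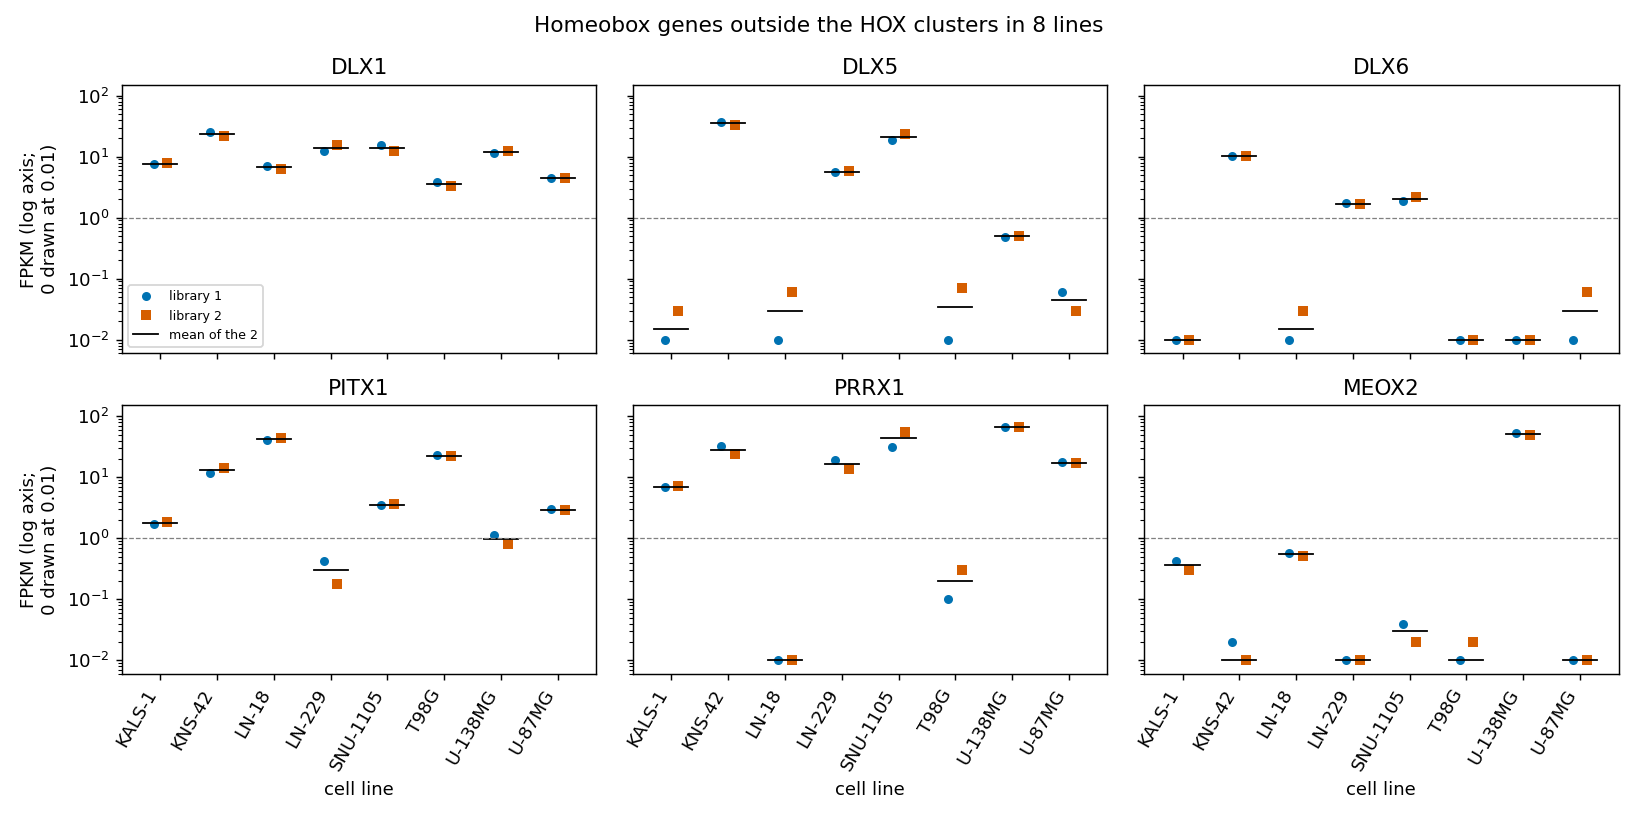
FPKM of DLX1, DLX5, DLX6, PITX1, PRRX1 and MEOX2 in the 2 libraries of each of 8 lines, with the mean as a bar, on a log axis with 0 drawn at 0.01. DLX1 lies above 1 FPKM in every library, DLX5 and DLX6 in 3 lines and MEOX2 in U-138MG alone.

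PRRX1, a mesenchymal homeobox gene, had the highest level of any member in the 8 lines, at 65.6 and 67.9 FPKM in U-138MG. It was at 31.1 and 56.2 FPKM in SNU-1105, 32.5 and 24.1 FPKM in KNS-42, 17.8 and 16.9 FPKM in U-87MG, 19.1 and 13.7 FPKM in LN-229 and 6.81 and 7.16 FPKM in KALS-1. In T98G it was at 0.10 and 0.30 FPKM, and in LN-18 at 0 and 0.01 FPKM. LN-18 and T98G thus lacked nearly all of a gene that the other 6 lines had at 6.81 FPKM or more. U-138MG and SNU-1105 did not differ beyond their spread (log2 fold change 0.61, SE 0.32, adjusted p = 0.121), but without the second SNU-1105 library the difference was 1.10 (adjusted p = 0.0185). It was 0.61 with an adjusted p of 0.0215 or 0.0212 without the first or second T98G library, over a range of 0.0185 to 0.596.

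PITX1, a factor of hindlimb and pituitary development, was highest in the 2 lines where PRRX1 was lowest. It was at 41.1 and 44.4 FPKM in LN-18, 22.9 and 22.5 FPKM in T98G, 11.8 and 14.4 FPKM in KNS-42, 3.53 and 3.61 FPKM in SNU-1105 and 3.02 and 2.90 FPKM in U-87MG. It was at 1.70 and 1.82 FPKM in KALS-1, 1.14 and 0.80 FPKM in U-138MG and 0.43 and 0.18 FPKM in LN-229. LN-18 was above T98G by 0.91 (SE 0.24, adjusted p = 0.00371) and T98G above KNS-42 by 0.79 (SE 0.24, adjusted p = 0.00675). SNU-1105 and U-87MG did not differ beyond their spread (adjusted p = 0.391).

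MEOX2 and POU2F2 each marked a single line. MEOX2, a factor of vascular and muscle development, was at 52.5 and 49.7 FPKM in U-138MG, 0.57 and 0.52 FPKM in LN-18, 0.42 and 0.30 FPKM in KALS-1 and 0.04 FPKM or less in the other 5 lines. U-138MG was above LN-18 by 6.55 (SE 0.33, adjusted p = 3.79e-11), and at least 1637-fold above the lowest line; LN-229 and U-87MG had no read. POU2F2, an octamer-binding factor best known from B cells, was at 22.7 and 32.3 FPKM in U-87MG, 1.79 and 1.94 FPKM in U-138MG and 0.26 FPKM or less in the other 6 lines. U-87MG was above U-138MG by 3.88 (SE 0.29, adjusted p = 4.13e-09). The 3 listed leukocyte markers (PTPRC, CD14 and ITGAM) summed to 0.08 and 0.09 FPKM in U-87MG, where PTPRC had 1 read in all. Their part in the POU2F2 level was not tested.

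TSHZ1, a zinc-finger homeobox repressor, was present in all 8 lines, at 16.3 and 16.4 FPKM in KNS-42, 7.11 and 7.97 FPKM in U-138MG, 7.69 and 6.82 FPKM in LN-229, 5.03 and 7.88 FPKM in SNU-1105, 4.82 and 5.40 FPKM in KALS-1, 2.47 and 3.21 FPKM in T98G, 1.74 and 2.18 FPKM in U-87MG and 1.46 and 1.39 FPKM in LN-18. KNS-42 was above U-138MG by 1.11 (SE 0.23, adjusted p = 0.000294). TSHZ3 was at 6.70 and 6.85 FPKM in U-87MG, 5.21 and 5.11 FPKM in SNU-1105, 4.38 and 4.73 FPKM in U-138MG, 2.07 and 3.28 FPKM in T98G, 2.33 and 2.98 FPKM in KNS-42 and 2.13 and 1.86 FPKM in LN-229. KALS-1 and LN-18 had only 0.14 to 0.19 FPKM of it. The 2 related genes thus had different top lines, and for TSHZ3 U-87MG and SNU-1105 did not differ beyond their spread (adjusted p = 0.16).

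ALX4, a craniofacial gene, was at 5.61 and 7.69 FPKM in T98G, 3.90 and 3.51 FPKM in LN-18 and 1.97 and 2.12 FPKM in KALS-1. It was at 0.48 and 0.42 FPKM in SNU-1105 and 0.08 FPKM or less elsewhere. T98G was above LN-18 by 0.84 (SE 0.29, adjusted p = 0.0223), a call that 4 of 22 alternatives ended, namely limma (adjusted p = 0.0984) and leaving out either LN-18 library (0.0778 and 0.137) or the second T98G library (0.106), over a range of 0.00316 to 0.137.

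**Figure D4:**
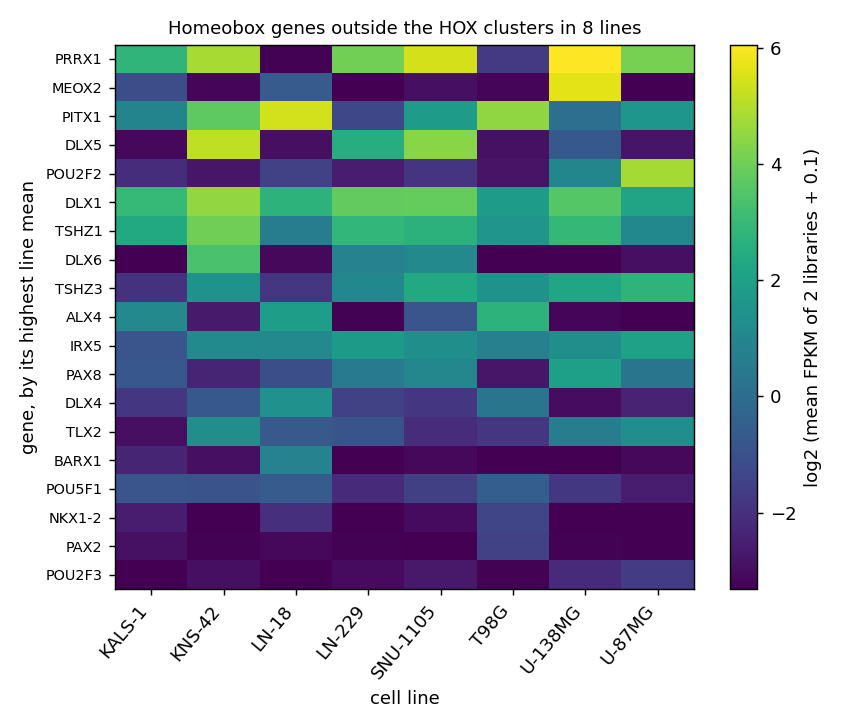
Colour map of log2 of the mean FPKM of 2 libraries plus 0.1 for 19 homeobox genes outside the HOX clusters in 8 lines, ordered by their highest line mean. PRRX1, MEOX2, PITX1 and DLX5 reach the brightest colours, and the lowest 4 genes stay under 1 FPKM.

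Of the members with lower peaks, IRX5 ran from 3.32 to 4.05 FPKM in LN-229 and U-87MG to 0.31 and 0.59 FPKM in KALS-1, with the other lines at 1.23 to 2.82 FPKM. PAX8 was at 3.66 and 3.95 FPKM in U-138MG, 1.74 and 2.12 FPKM in SNU-1105, 1.35 and 1.41 FPKM in LN-229, 1.09 and 1.23 FPKM in U-87MG and 0.48 FPKM or less elsewhere. TLX2, a gene of enteric neurons, was at 2.14 and 2.60 FPKM in KNS-42, 2.52 and 2.11 FPKM in U-87MG, 1.31 and 1.65 FPKM in U-138MG and 0.56 FPKM or less elsewhere. BARX1, a stomach and jaw gene, was at 1.58 and 1.77 FPKM in LN-18 and 0.12 FPKM or less elsewhere. NKX1-2 and PAX2 were highest in T98G, POU2F3 in U-87MG and POU5F1 in T98G, all under 1 FPKM in every library. An opposite-strand gene covers 36.4% of the exon bases of NKX1-2, so its level is uncertain. POU5F1 has near-identical copies elsewhere in the genome and its reads are uncertain.

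In the 3 lines, 50 of 51 members passed the low-count filter (DLX3 did not) and all 50 differed among the lines, as did 100% of the 5035 tested genes. In 40 of 50, 1 line was called higher than both others, against 65% of all genes. That line was A-172 for 15 members (13.2% of all genes), AM-38 for 5 (19.5%) and SNU-466 for 20 (32.3%). LHX6 was the only one of the 50 whose highest line was not above the next at an adjusted p under 0.05, against 90.9% of all genes that were. The median of the highest line mean was 7.38 FPKM for the HOX genes, 2.93 FPKM for the other members and 3.41 FPKM for all listed genes. Of the other 36 members, 18 were highest in SNU-466, 10 in A-172 and 8 in AM-38 (50%, 27.8% and 22.2%), near the 45.8%, 24.1% and 30.1% of all listed genes.

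The HOX partner genes MEIS and PBX did not share an order. MEIS2 was at 16.1 and 16.02 FPKM in A-172, 2.33 and 2.77 FPKM in AM-38 and 1.12 and 1.04 FPKM in SNU-466, which is also the order of most HOXB genes. PBX3 was at 16.5 and 17.0 FPKM in A-172, 6.21 and 5.97 FPKM in AM-38 and 2.83 and 2.42 FPKM in SNU-466. Both partner genes were highest in A-172, over AM-38 by log2 fold changes of 2.66 (SE 0.07) for MEIS2 and 1.46 (SE 0.08) for PBX3.

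MEIS1 and MEIS3 were highest in SNU-466 instead. MEIS1 was at 3.24 and 2.95 FPKM there, 0.74 and 0.80 FPKM in A-172 and 0.29 and 0.28 FPKM in AM-38. MEIS3 was at 10.4 and 11.6 FPKM in SNU-466, 6.36 and 6.10 FPKM in A-172 and 4.53 and 4.64 FPKM in AM-38. SNU-466 was above A-172 by 2.01 (SE 0.11, adjusted p = 3.63e-29) for MEIS1 and by 0.82 (SE 0.08, adjusted p = 1e-15) for MEIS3, and no libraries of different lines overlapped for either gene.

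DLX5 set SNU-466 apart, at 62.3 and 63.4 FPKM with 1842 and 2172 reads, whereas not 1 read was seen in A-172 or AM-38. This is at least 1450-fold higher than in either line. DLX6 was at 2.16 and 2.32 FPKM in SNU-466 and likewise at 0 reads in A-172 and AM-38, at least 102-fold lower. DLX2, on chromosome 2, was at 1.79 and 1.46 FPKM in SNU-466 and at 0.35 to 0.60 FPKM in A-172 and AM-38. For DLX2, A-172 and AM-38 did not differ beyond their spread (adjusted p = 0.689). DLX4 ran the other way, at 1.40 and 1.24 FPKM in A-172, 0.57 and 0.44 FPKM in AM-38 and 0.16 and 0.18 FPKM in SNU-466. DLX3 was at 0.26 FPKM or less in every library.

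**Figure D5:**
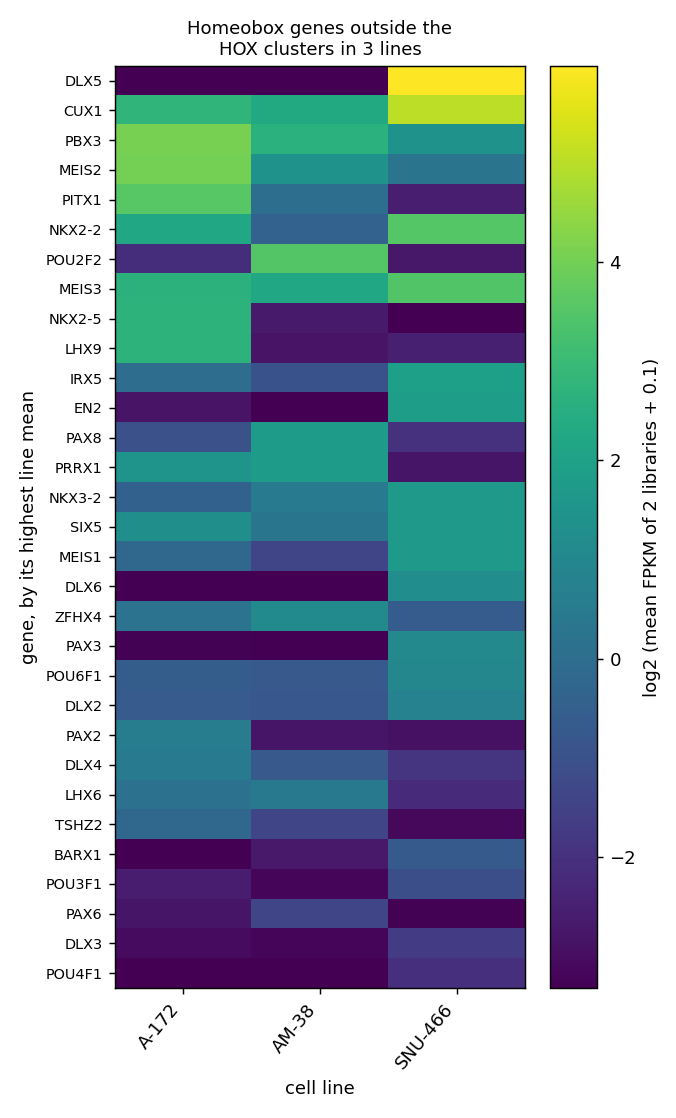
Colour map of log2 of the mean FPKM of 2 libraries plus 0.1 for 31 homeobox genes outside the HOX clusters in A-172, AM-38 and SNU-466, ordered by their highest line mean. DLX5 and CUX1 are brightest in SNU-466, PBX3, MEIS2 and PITX1 in A-172 and POU2F2 in AM-38.

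CUX1, a widely expressed homeobox gene, was at 33.9 and 32.6 FPKM in SNU-466, 6.75 and 6.47 FPKM in A-172 and 4.94 and 4.83 FPKM in AM-38, SNU-466 being above A-172 by 2.33 (SE 0.05, adjusted p = 1.3e-59). NKX2-2, a ventral neural tube and oligodendrocyte factor, was at 11.6 and 11.2 FPKM in SNU-466, 4.97 and 4.09 FPKM in A-172 and 0.71 and 0.61 FPKM in AM-38. An antisense gene covers 30.5% of its exon bases, so its level is uncertain. EN2, a midbrain and hindbrain boundary gene, was at 3.73 and 3.44 FPKM in SNU-466, 0.05 and 0.03 FPKM in A-172 and 0 reads in AM-38. PAX3, a dorsal neural tube and neural crest factor, was at 1.93 and 2.01 FPKM in SNU-466, with 1 read in A-172 and none in AM-38. EN2 was at least 167-fold and PAX3 at least 214-fold higher in SNU-466 than in AM-38. IRX5 was at 3.67 and 3.69 FPKM in SNU-466, 1.03 and 0.79 FPKM in A-172 and 0.43 and 0.39 FPKM in AM-38.

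A-172 had the highest PITX1, at 11.9 and 11.3 FPKM against 1.12 and 0.73 FPKM in AM-38 and 0.10 and 0.04 FPKM in SNU-466. NKX2-5, a heart specification gene, was at 6.75 and 5.86 FPKM in A-172, 0.05 and 0.07 FPKM in AM-38 and 0 reads in SNU-466. LHX9, a LIM homeobox gene of the gonad and forebrain, was at 6.44 and 6.16 FPKM in A-172 and at 0.08 FPKM or less in AM-38 and SNU-466, which did not differ beyond their spread (adjusted p = 0.0782). A-172 was above AM-38 by 3.64 (SE 0.13, adjusted p = 3.8e-41) for PITX1, and above SNU-466 by 6.36 (SE 0.16, adjusted p = 3.51e-54) for LHX9. NKX2-5 was at least 158-fold higher in A-172 than in SNU-466.

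AM-38 had the highest POU2F2, at 11.5 and 10.8 FPKM, with 0.10 and 0.17 FPKM in A-172 and 0.05 FPKM in each SNU-466 library. It was above A-172 by 6.32 on the log2 scale (SE 0.13, adjusted p = 6.67e-59). PAX8 was at 3.62 and 3.19 FPKM in AM-38, 0.40 FPKM in each A-172 library and 0.13 and 0.17 FPKM in SNU-466. PRRX1 was at 3.34 and 3.45 FPKM in AM-38, 2.67 and 2.80 FPKM in A-172 and 0.04 and 0.05 FPKM in SNU-466. AM-38 was above A-172 by 3.09 (SE 0.15) for PAX8 and 0.31 (SE 0.10) for PRRX1. AM-38 was also the line grown with 20% serum, which cannot be told apart from the line.

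NKX3-2 and SIX5 peaked in SNU-466, at 3.26 and 3.11 FPKM and at 3.08 and 3.23 FPKM, and an opposite-strand gene covers 56.8% of the exon bases of SIX5. ZFHX4 peaked in AM-38 at 1.96 and 2.10 FPKM. The remaining members named here had highest line means between 0.145 FPKM (POU4F1) and 1.89 FPKM (POU6F1). They were POU6F1, BARX1, POU3F1 and POU4F1, highest in SNU-466, PAX2 and TSHZ2, highest in A-172, and LHX6 and PAX6, highest in AM-38. PAX6, a master gene of eye and forebrain, did not exceed 0.33 FPKM in any library. POU4F1 had no read in A-172 or AM-38. Opposite-strand genes cover 25.2% (PAX6) and 27.7% (POU4F1) of the exon bases of these 2 genes, so their levels are uncertain.

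There were 12 members listed in both tables, and their levels can be set side by side without a test. HOXB2, the only HOX gene among them, was at 33.1 FPKM on average in A-172, 16.9 in KNS-42, 16.4 in SNU-1105, 9.34 in U-87MG and 4.99 in AM-38, and under 1 FPKM in the other 6 lines. DLX5 was at 62.9 FPKM on average in SNU-466 and 35.4 in KNS-42, 21.2 in SNU-1105 and 5.68 in LN-229, with the other 7 lines under 1 FPKM. DLX6 reached 1 FPKM in the same 4 lines. POU2F2 exceeded 10 FPKM in U-87MG and AM-38 alone. PITX1 was at 0.07 FPKM in SNU-466 on average and between 0.305 FPKM (LN-229) and 42.8 FPKM (LN-18) in the other 10 lines. PRRX1 was under 1 FPKM in LN-18, T98G and SNU-466 and between 2.74 FPKM (A-172) and 66.8 FPKM (U-138MG) in the other 8.

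Homeobox genes outside the families above were listed for 10 of 56 in the 8 lines and 14 of 56 in the 3 lines. In the 8 lines, 3 of 10 were called higher in 1 line than in each other line, against 46.8% of all tested genes. These were HMX1 in T98G (2.99 and 4.67 FPKM, with 0 reads in the other 7 lines), PKNOX2 in LN-229 (4.2 and 3.28 FPKM) and HMX2 in LN-18 (0.87 and 0.88 FPKM). In the 3 lines, 9 of 12 tested genes were called so, against 65% of all tested genes. MKX, a tendon gene of the TALE class, was the most abundant, at 117 and 131 FPKM in A-172, 1.85 and 2.04 FPKM in AM-38 and 0 and 0.01 FPKM in SNU-466. HOPX was at 22.2 and 22.1 FPKM in AM-38 and 0.02 FPKM or less elsewhere. ZEB2 was at 20.6 and 20.2 FPKM in SNU-466 and 2.39 to 2.44 FPKM in A-172 and AM-38, and PKNOX2, a MEIS relative, at 13.8 and 13.3 FPKM in SNU-466 and 0.01 FPKM elsewhere.

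Polycomb, Trithorax and retinoid genes, which are known to act on HOX clusters, were listed for 2 of 35 in the 8 lines and 9 of 35 in the 3 lines. CRABP2, a retinoic acid carrier, was called highest in U-138MG at 62.9 and 111 FPKM, and DHRS3, a retinal reductase, in LN-229 at 71.8 and 74.3 FPKM, so that both listed genes were higher in 1 line than in each other line, as were 46.8% of all tested genes. In these 2 lines none of the 4 listed HOX genes reached a mean of 1 FPKM, though HOXC5 was close to it in LN-229. The next line for DHRS3 was U-87MG at a mean of 12.08 FPKM, and for CRABP2 SNU-1105 at 8.045 FPKM. HOXB2 averaged 9.34 FPKM in U-87MG and 16.395 FPKM in SNU-1105. The part of CRABP2 and DHRS3 in the HOX levels was not tested. In the 3 lines, SUZ12, a core Polycomb subunit, was at 27.6 and 33.4 FPKM in A-172, 10.4 and 11.1 FPKM in AM-38 and 6.54 and 6.59 FPKM in SNU-466. BMI1 was at 19.4 and 19.5 FPKM in A-172, 20.4 and 20.5 FPKM in AM-38 and 6.94 and 6.50 FPKM in SNU-466. RARG, a retinoic acid receptor, was at 21.9 and 23.2 FPKM in SNU-466, 10.5 and 9.80 FPKM in A-172 and 3.96 and 3.61 FPKM in AM-38. Of the 9 genes, 4 were higher and 0 lower in A-172 than in AM-38, 3 higher and 2 lower in A-172 than in SNU-466, and 2 higher and 6 lower in AM-38 than in SNU-466. Of all tested genes, 24.1% were higher and 24.5% lower in the first of these comparisons, 49.9% and 34.8% in the next and 51.6% and 40.1% in the last.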

How the data were processed

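Poly(A) RNA-seq of 22 libraries from 11 lines was analysed. The authors deposited raw read counts, gene lengths and FPKM for every listed gene in every library. The deposited FPKM are reads per length and per library total. Per the submitters' processing notes, the tools were HISAT2 2.2.1, StringTie 1.3.3, HTSeq 0.6.0, FastQC 0.10.1 and cutadapt 1.9.1 on hg38, and their roles are not given. The strand setting of the counting and the annotation release are not given in the sources used here. Per the labels' protocols, the libraries were strand-specific.

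Library totals were computed as the reads divided by length and FPKM, from genes with 20 FPKM and 200 reads or more, and gave back the deposited FPKM within 0.01 for at least 99.91% of genes. Of the reads, 5.81% to 10.2% (8 lines) and 21.8% to 37.1% (3 lines) fell on listed genes, so a library total was preferred to factors from the listed genes. Each table was fitted apart over all its genes with the edgeR 4.0.16 quasi-likelihood test (R 4.3.3), with 1 coefficient per line, after edgeR's filter on low counts by line. A pair of lines was called different where the Benjamini-Hochberg adjusted p, over all tested genes of the pair, was under 0.05 and the log2 fold change was 1 or more in size. Where a line had no reads, the fold given is a lower bound, set against 3 reads in its 2 libraries together. The SE of a log2 fold change comes from the test statistic. The code was tested on simulated data. Alternatives were TMM and RLE scaling, no low-count filter, DESeq2 1.42.0, limma 3.58.1 on log2 CPM, a replicate block, other thresholds, and each library left out.

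Names matched for 2220 of 2221 and 5382 of 5383 genes. Positions and exon overlaps are from GENCODE 29 (GRCh38), and promoters from RefSeq (GRCh38.p14). HOX members are named, and other members with a highest line mean of at least 5 FPKM, the rest with shorter values. At most 4 genes of a list are named, those with the highest line means, beside genes called highest in a line. Some genes are not reported here by name, though counts and sums include them. The members and the lists were chosen with earlier results of these data known.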

Additional observations from a re-analysis of the deposited data

How the results depend on the processing

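The members that differed among lines stayed at 24 in the 8 lines when each library was left out (24 to 24) and at 49 to 51 in the 3 lines (50 with all libraries). Members higher in 1 line than in each of the other 7 came to 9, and to 8 to 10 with a library left out, 6 with DESeq2 and 15 with no fold threshold. In the 3 lines that count was 40, and 39 to 42 with a library left out. The highest line stood above the next for 15 of 24 members (55.9% of all genes) and 13 to 16 with a library left out, and for 49 of 50 and 48 to 51. At a level of 2 FPKM, the HOX genes counted in SNU-466 fell from 8 to 4, and those in LN-18 and T98G from 1 to 0. At 0.5 FPKM, LN-229 had 1 in place of 0 and SNU-1105 had 2 in place of 1. AM-38 had 9 to 10 with a library left out. The cause was not tested for any of these beyond the thresholds themselves. Of 41 members (HOX genes, or a highest line mean of 5 FPKM or more), 31 kept their side of the threshold and their direction for highest against next line in every alternative run. Signs turned for HOXB2 in KNS-42 against SNU-1105 (log2 fold change -0.18 with TMM, -0.15 with RLE) and for HOXD12 in LN-229 against KNS-42 (-0.20 without the first LN-229 library, 0.89 without the second), none of them called. Without both T98G libraries, an alternative chosen after seeing the data, 22 members differed among the 7 lines left and 9 were higher in 1 line than in each other. Same-numbered libraries of 2 lines did not deviate together: correlations were -0.135 to 0.093 over 28 pairs of the 8 lines and -0.045 to 0.079 over 3 pairs. A replicate block gave 24, 9 and 15 members in the 8 lines and 50, 40 and 49 in the 3 lines, the counts without it. Depth limits what can be said of members at a few reads, such as HOXD12 and PAX2 in the 8 lines and HOXC12 in the 3 lines.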
